A study of Mus musculus with 37 samples.

Results

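Ttr, Afp, Apoa1, Apoa4, Apob, Apom, Trf, Rbp4, Amn and Cubn are genes of the visceral endoderm, the epithelium that covers the early mouse embryo on its yolk sac side. They were chosen by symbol, with earlier results of these data known: 8 code for secreted carrier proteins and 2 for the parts of an uptake receptor. All 10 were found among the 35542 genes of the count table and all 10 passed the filter on low counts that left 15978 genes for testing over all stages. The table holds polyA RNA-seq counts of the tailbud, the growing posterior end of the embryo, from 37 single C57BL/6 by Cast F1 embryos at E8 to E8.5 with 6 to 11 somites, 1 library per embryo. The 21 Smchd1wt embryos are Smchd1 fl/+ and stand for wild type. The 16 Smchd1matdel embryos are Smchd1 del/+: their mothers carried MMTV-Cre, which deleted Smchd1 in the egg, so the chromatin protein SMCHD1 was missing from the oocyte while the embryo held a paternal wild-type copy. These mothers had 1 deleted copy already before Cre acted. At 6, 7, 8, 9, 10 and 11 somites there were 4, 4, 3, 3, 4 and 3 Smchd1wt embryos and 4, 3, 2, 2, 3 and 2 Smchd1matdel embryos. Nothing in the sources used here ties embryos to litters, so the tests below measure the spread between embryos.

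The visceral endoderm takes up maternal proteins and lipids and secretes a set of plasma proteins that the liver makes later in life. Ttr (transthyretin) and Rbp4 carry thyroid hormone and retinol, Afp (alpha-fetoprotein) is the main serum protein of the fetus, Trf (transferrin) carries iron, and Apoa1, Apoa4, Apob and Apom are the protein parts of lipoprotein particles. Cubn (cubilin) and Amn (amnionless) together form the apical receptor through which the cells take up proteins from outside. Some visceral endoderm cells join the gut tube of the embryo, and the rest line the yolk sac. In bulk tissue, fewer cells of a type and less RNA per cell cannot be told apart, and this holds for every difference given here.

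Libraries held 916444 to 80579115 counts, with a median of 12845991. In all 37 embryos the 10 genes together took between 0.00139% and 0.494% of the counts, with a median of 0.114%. Levels are given as CPM, a gene's count relative to the TMM-scaled total of its library. Per kilobase of exon, the median level over the embryos put Apoa1 first at 126.6 CPM per kb, followed by Rbp4 at 66.5, Ttr at 61.4, Afp at 54.2 and Apom at 39.1 CPM per kb. Apoa4 and Apob had medians of 21.3 and 20.5 CPM per kb. Amn, Trf and Cubn came last at 7.99, 7.89 and 7.86 CPM per kb. Every one of these genes varied over embryos by far more than the steps between neighbours in this order. Trf is uncertain, because 63.5% of its exon bases are shared with the same-strand gene Gm20425, which was at 60.2 to 181 CPM. Apoa4 shares 34.9% of its exon bases with Gm47528 and 34.8% with Gm10680 on the opposite strand, and some libraries of the series may be unstranded.

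For 8 of the 10 genes RefSeq gives a promoter sequence on GRCm38.p6. The 4 below are shown because the proportions of Apob and Afp shifted with stage, and because Apoa1 and Apoa4 are neighbours on chromosome 9. All 4 genes lie on the plus strand, and each stretch ends at the base before the annotated start. It runs over chr5:90490554-90490713 for Afp, chr9:46228420-46228579 for Apoa1, chr9:46240594-46240695 for Apoa4 and chr12:7977488-7977647 for Apob. Capitals mark matches, on either strand, to 4 short motifs whose letters were chosen with the sequences in view: an HNF4-type CAAAGNNCA, an HNF1-type GTTAAT, a FOXA-type TGTTTNC and a GATA-type GATAAG. HNF4, HNF1, FOXA and GATA proteins are transcription factors of the endoderm and liver.
Afp: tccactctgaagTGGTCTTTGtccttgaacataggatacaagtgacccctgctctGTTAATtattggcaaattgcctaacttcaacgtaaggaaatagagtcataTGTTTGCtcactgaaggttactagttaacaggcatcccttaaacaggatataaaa
Apoa1: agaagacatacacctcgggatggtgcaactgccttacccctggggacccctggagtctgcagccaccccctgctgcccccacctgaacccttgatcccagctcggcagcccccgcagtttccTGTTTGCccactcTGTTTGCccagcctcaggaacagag
Apoa4: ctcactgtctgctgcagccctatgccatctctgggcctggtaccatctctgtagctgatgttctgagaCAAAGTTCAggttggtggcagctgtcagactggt
Apob: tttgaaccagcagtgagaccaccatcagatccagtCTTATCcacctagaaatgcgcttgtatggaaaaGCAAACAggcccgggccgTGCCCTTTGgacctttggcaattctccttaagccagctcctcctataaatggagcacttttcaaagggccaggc

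Over the full windows of 300 bases around RefSeq starts, the HNF4-type letters were present for 4 of the 8 genes (Afp, Apoa4, Apob and Cubn) and in 6.36% of all 32851 windows. The FOXA-type letters were present for 5 of the 8 (Afp, Apoa1, Apob, Apom and Rbp4) and in 20.5% of all windows. The HNF1-type letters were present for Afp and in 7.1% of all windows, and the GATA-type letters for Apoa1 and Apob and in 7.44%. Because the letters were chosen with these sequences in view, the shares among the 8 genes are not to be read against those of all windows. A match is a run of letters and does not show that a protein binds there.

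The most visible feature of these genes was how far they differed between embryos of the same stage. Ttr was at 111, 36.5, 105 and 167 CPM in the 4 Smchd1wt embryos with 6 somites and at 96.3, 119.9, 148 and 75.7 CPM in the 4 Smchd1matdel embryos. At 7 somites it was at 128, 89.1, 69.7 and 209 CPM in Smchd1wt and at 84.4, 38.7 and 59.9 CPM in Smchd1matdel embryos. At 8 somites it was at 279, 72.8 and 139 CPM in Smchd1wt and at 63.3 and 118 CPM in Smchd1matdel embryos. Up to this stage Ttr was at 36.5 CPM or above in every embryo and the genotypes overlapped. At 9 somites it was at 78.1, 11.3 and 3.79 CPM in Smchd1wt and at 150.3 and 1.92 CPM in Smchd1matdel embryos. At 10 somites the Smchd1wt embryos were at 225, 39.6, 18.2 and 8.68 CPM and the Smchd1matdel embryos at 0.76, 209.7 and 16.4 CPM. At 11 somites the values were 25.7, 0.304 and 4.96 CPM in Smchd1wt and 2.29 and 31.8 CPM in Smchd1matdel embryos. At 9 and 10 somites, single embryos of either genotype thus held Ttr at the level of younger embryos while others of the same stage held almost none. At 11 somites no embryo reached 36.5 CPM, the lowest value at 6 to 8 somites. The lowest value of Ttr over all 37 embryos rests on 5 counts and its highest count was 6443, so counting error matters only for the lowest embryos.

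**Figure D1:**
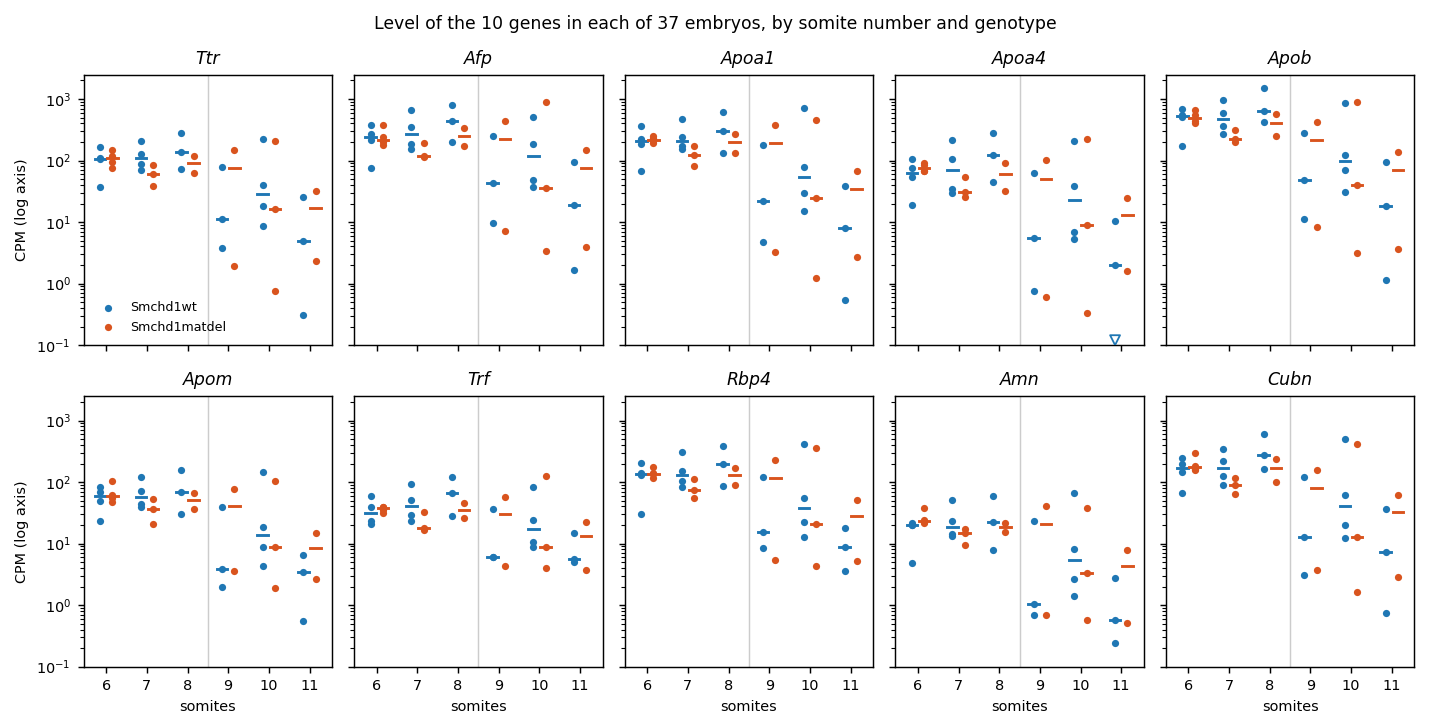
CPM of the 10 genes (log axis) in each of 37 embryos against somite number, Smchd1wt in blue and Smchd1matdel in orange, with a short bar at the median of each group. The open triangle is the single embryo with 0 counts of Apoa4, and the grey line parts the 6 to 8 from the 9 to 11 somite embryos, where the points of every gene spread downwards.

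The other genes had their extremes in few embryos. Apob, which codes for the core protein of the lipoproteins that the yolk sac secretes, was highest in an 8-somite Smchd1wt embryo at 1502 CPM. It was lowest in an 11-somite Smchd1wt embryo at 1.15 CPM. In Smchd1wt embryos its lowest, median and highest values were 171, 540.4 and 1502 CPM at 6 to 8 somites and 1.15, 59.6 and 864 CPM at 9 to 11 somites. In Smchd1matdel embryos they were 199, 412 and 664 CPM at 6 to 8 somites and 3.17, 39.5 and 895 CPM at 9 to 11 somites. The median was lower in the later window in both genotypes, while the highest later embryo lay within the earlier range in Smchd1wt and above it in Smchd1matdel embryos. Cubn, the ligand-binding part of the uptake receptor, ran at 65.4, 198 and 599.9 CPM (lowest, median and highest) in Smchd1wt embryos at 6 to 8 somites and at 0.729, 16.5 and 507 CPM at 9 to 11 somites. The same 3 values of Cubn in Smchd1matdel embryos were 64.6, 159 and 294 CPM in the earlier and 1.62, 12.6 and 419.6 CPM in the later window. Afp was at 75.4, 269.9 and 795 CPM in Smchd1wt and 115, 194 and 376 CPM in Smchd1matdel embryos at 6 to 8 somites. At 9 to 11 somites it was at 1.64, 45.6 and 506 CPM in Smchd1wt and 3.37, 36.3 and 890.4 CPM in Smchd1matdel embryos. The single highest value of Afp and of Trf was in a 10-somite Smchd1matdel embryo, the other 8 genes having theirs in Smchd1wt embryos with 8 or 10 somites.

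Over all 37 embryos the highest value of a gene exceeded its lowest by between 33.7-fold for Trf and 1304-fold for Apoa1, setting Apoa4 aside. Apoa4 had 0 counts in the second 11-somite Smchd1wt embryo, where 3 counts, the limit that a count of 0 allows, come to 0.182 CPM, so its highest value of 277 CPM was at least 1519.7-fold higher. That embryo was the lowest of the 37 for 9 of the 10 genes. The exception was Trf, lowest at 3.72 CPM in the first 11-somite Smchd1matdel embryo. At 9 to 11 somites 13 of 17 embryos lay below the lowest 6 to 8 somite embryo for Apob, Apom and Cubn. The fewest, 10 of 17, did so for Afp. In contrast, 2 to 4 of the 17 later embryos lay above the median of the earlier ones, depending on the gene.

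The spread was measured as the SD of log2 CPM around the mean of each genotype and somite group. It was 2.04 for Ttr, 2.09 for Afp, 2.24 for Apoa1, 2.40 for Apoa4 and 2.12 for Apob. Apom was at 1.64, Trf at 1.31, Rbp4 at 1.73, Amn at 1.85 and Cubn at 2.09, whereas the median of all genes tested was 0.29. Apoa4 ranked 8 and Trf 314 of 15978 genes by this SD, with the other 8 genes between them. Counted within the 6 to 8 somite groups alone, the SD was 0.71 for Trf to 1.02 for Apoa4, and within the 9 to 11 somite groups it was 1.80 for Trf to 3.43 for Apoa4. The later SD was 2.53 to 4.28 times the earlier one for these 10 genes and 0.8 times for the median gene. Trf had the smallest ratio and Apob the largest.

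**Figure D2:**
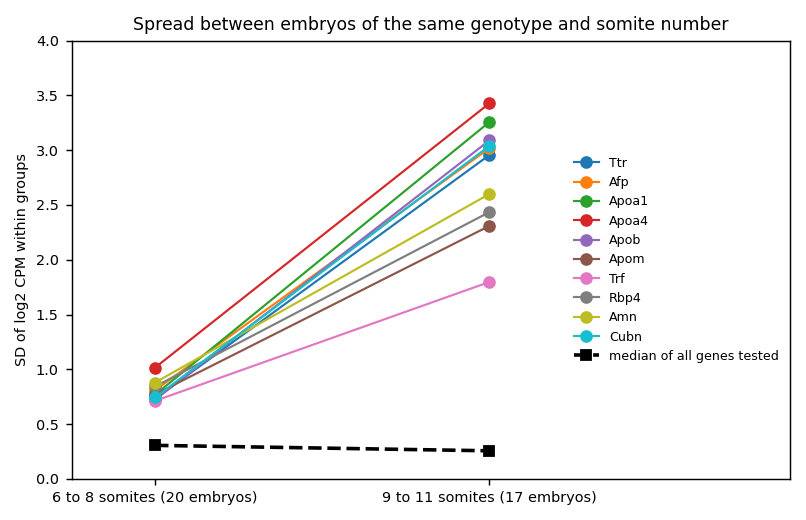
SD of log2 CPM within groups of the same genotype and somite number, for embryos with 6 to 8 and with 9 to 11 somites. Each of the 10 genes rises from between 0.71 and 1.02 to between 1.80 and 3.43, and the dashed line, the median of all genes tested, goes from 0.31 to 0.26.

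The 10 genes varied together. Over the 37 embryos Pearson's r of log2 CPM was between 0.926 (Apob with Trf) and 0.997 (Ttr with Apoa1) in the 45 pairs, with a median of 0.973, and Spearman's rho had a median of 0.971. In 45 of 45 pairs r was at least 0.9, a level reached by 0.0165% of all pairs of tested genes, whose median r was 0.017. Each of the 45 pairs gave a permutation p of 1e-05 for r and for rho, the smallest that the 100000 permutations can give, and 1e-05 after Benjamini-Hochberg adjustment over the pairs. Without the 2 embryos farthest from the median of the first gene, r was at least 0.933 in each pair. With each group's mean taken out, r was 0.904 to 0.995. It was 0.779 to 0.984 in the 20 embryos with 6 to 8 somites and 0.92 to 0.997 in the 17 with 9 to 11 somites. Within Smchd1wt embryos it was 0.906 to 0.997 and within Smchd1matdel embryos 0.951 to 0.997. Trf was a partner in the lowest pair in each of these 5 sets. The mean of the 10 standardised genes had r of -0.233 with the logarithm of the total count, 0.046 with the share of ribosomal RNA counts and 0.23 with the share of mitochondrial counts.

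**Figure D3:**
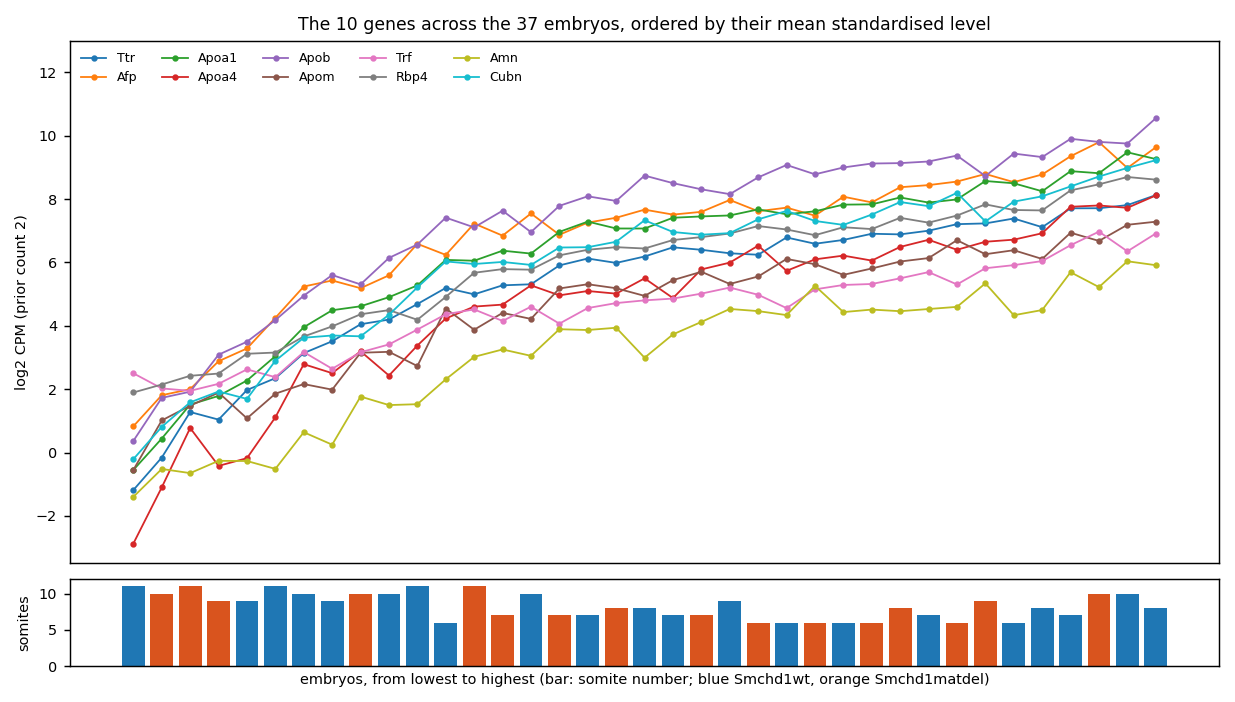
Log2 CPM of the 10 genes in the 37 embryos, ordered by the mean of the standardised genes, with the somite number of each embryo as a bar (blue Smchd1wt, orange Smchd1matdel). All 10 lines climb together over the whole order, and the left end holds embryos with 9 to 11 somites of both genotypes.

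The same embryos stood at the ends for nearly every gene. The first 8-somite Smchd1wt embryo, the first 10-somite Smchd1wt embryo and the fourth 7-somite Smchd1wt embryo were among the 5 highest for 10 of 10 genes. The second 10-somite Smchd1matdel embryo was among the 5 highest for 9 of 10 genes. At the other end, the first 10-somite Smchd1matdel, the second 11-somite Smchd1wt and the first 11-somite Smchd1matdel embryo were among the 5 lowest for 10 of 10 genes.

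The genes most like the 10 were looked up among the other 15968 tested genes by Pearson's r over 37 embryos with the mean of the standardised members. Of these, 80 genes reached 0.9 and 203 reached 0.8. The closest were Serpinf2 (alpha-2-antiplasmin, a plasma protease inhibitor), Gm44805, Apoc2, Hnf4a and Gm10680, all with r of 0.99. They were followed by Lgals2, Slc13a4, Slc7a8, Slc2a2, Car7, Gm47528 and Fgb with r between 0.98 and 0.986. Gm44805 overlaps Apoc2, and Gm10680 and Gm47528 lie against Apoa4, so these 3 may share reads with their neighbours. Apoc2 codes for a lipoprotein cofactor, Slc2a2 for the glucose transporter GLUT2, Slc7a8 and Slc13a4 for amino acid and sulfate transporters, and Fgb for a fibrinogen chain. Hnf4a, a transcription factor that the visceral endoderm needs, was at 0.122 to 130.5 CPM with a median of 25.4 CPM.

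Of 24 other secreted plasma proteins listed, 19 were tested, their median r with the 10 genes was 0.866, and 12 of the 19 were at 0.8 or above. The lowest were Vtn and Ahsg, with r of 0.0876 and 0.153. The most abundant was Apoe at 15.9 to 862 CPM (r of 0.969). The neighbours of the members on the chromosome did not all share their level: beside Apoa1 and Apoa4 on chromosome 9, Apoc3 was at 0 to 5.45 CPM (r of 0.85) and Apoa5 at 0.645 to 6.52 CPM (r of 0.734). Alb (albumin), which lies beside Afp, had 0 counts in 35 of 37 embryos and at most 0.0956 CPM, and was not tested.

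Of 18 listed genes for uptake and lipid assembly, 18 were tested with a median r of 0.829, and 9 reached 0.8. Dab2, the endocytic adaptor of the Cubn receptor, was at 24.5 to 533 CPM (r of 0.957), and Mttp, which loads lipid onto Apob, at 8.95 to 186 CPM (r of 0.962). Lrp2 (megalin), the partner of cubilin, was at 27.1 to 147 CPM with r of 0.775. The most abundant of this list was Slc2a3, a glucose transporter found in many cells, at 1441 to 3174 CPM (r of 0.747). The transferrin receptor gene Tfrc went the other way, with r of -0.53.

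Transcription factors and markers of other cells were less alike. Of 13 listed factors of the visceral endoderm, 2 reached 0.8, Hnf4a with r of 0.99 among them, and the list's median was 0.217. Of the gut endoderm markers, 1 of 13 tested reached 0.8, Spink1 with r of 0.953, and the median was 0.342. Cldn6, Nepn, Krt8 and Krt18 followed at 0.792, 0.668, 0.629 and 0.61, while Foxa2, Epcam and Foxa1 were at 0.102, 0.147 and -0.412. The summed gut endoderm markers had r of 0.745 with the 10 genes (log2 scale). Median r was 0.416 for parietal endoderm markers, 0.105 for trophoblast, -0.227 for primitive erythroid, -0.162 for endothelial, 0.0651 for allantois and extraembryonic mesoderm, -0.105 for hepatoblast and -0.324 for tailbud markers. None of these 7 lists held a gene with r of 0.8. By Spearman's rho the parietal endoderm markers Pth1r, Col4a2, Sparc and Col4a1 stood higher, at 0.785, 0.723, 0.706 and 0.702. The other parietal endoderm markers had rho from -0.111 for Lama1 to 0.472 for Fst. Over embryos the summed gut endoderm markers ran from 495 to 1095 CPM and the summed parietal endoderm markers from 555 to 4262 CPM, while the 8 secreted members summed to 13.3 to 4138 CPM. In their own lists the most abundant genes were Cdx1, Krt8, Col4a1, Tfap2c, Hbb-bh1, Kdr, Bmp4, Tbx3 and Cdx2. These relations are descriptions over embryos of 1 tissue, and the part of any other cell type in them was not tested.

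How the 10 genes changed with stage was asked by a slope on somite number in each genotype (edgeR quasi-likelihood test, Benjamini-Hochberg adjustment over all 15978 genes). In Smchd1wt embryos the slope was negative for each of the 10 genes and none of them passed the adjusted threshold. Beside this, 3.06% of all genes fell and 3.07% rose. The log2 slope per somite was -0.73 ± 0.24 (SE) for Apob, the steepest, with an adjusted p of 0.0618, and -0.42 ± 0.16 for Trf, the shallowest, with an adjusted p of 0.128. Ttr had -0.60 ± 0.21 and Apom -0.60 ± 0.20, with adjusted p of 0.0899 and 0.0688. Rbp4 was at -0.53 ± 0.22, Amn at -0.50 ± 0.22, Cubn at -0.60 ± 0.24, Afp at -0.51 ± 0.23, Apoa1 at -0.56 ± 0.25 and Apoa4 at -0.59 ± 0.26, with adjusted p between 0.141 and 0.199. The unadjusted p was under 0.05 for 10 of 10 genes (0.0045 to 0.0344), where 10.7% of all genes had a falling slope with such a p. That count was 3 of 10 without the sex term, where 9.66% of all genes had a falling slope with such a p, and 5 of 10 without the second or the third 11-somite Smchd1wt embryo. Because the 10 genes varied together over the same embryos, counts out of 10, here and below, are not counts of independent tests. The median slope was -0.58 for the 10 genes and -0.0013 for all genes.

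In Smchd1matdel embryos the slopes were also negative, from -0.46 for Apob to -0.13 for Trf with a median of -0.36, and none passed (adjusted p 0.257 to 0.775, and 0 of 10 with an unadjusted p under 0.05). Of all genes 2.46% fell and 3.56% rose in these embryos, and 9.11% had a falling slope with an unadjusted p under 0.05. With limma voom 7 of the 10 Smchd1matdel slopes passed, where 7.83% of all genes did, and 10 of 10 had an unadjusted p under 0.05. Without the second 10-somite Smchd1matdel embryo 5 of 10 had such a p and 0 passed (edgeR). The difference between the slopes (Smchd1matdel minus Smchd1wt) was 0.09 to 0.35 per somite, for Ttr 0.23 with a 95% confidence interval of -0.38 to 0.84. It passed for none of the 10 genes and for 0% of all genes with edgeR, and its unadjusted p was under 0.05 for 0 of 10 and for 3.92% of all genes. DESeq2 called 6 of the 10 Smchd1wt slopes and 9.24% of those of all genes, and limma with voom called 2 of 10 and 7.4%. Without the first 10-somite Smchd1wt embryo, which was among the 5 highest for every member, edgeR called 9 of 10 and 11.1% of all genes.

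**Figure D4:**
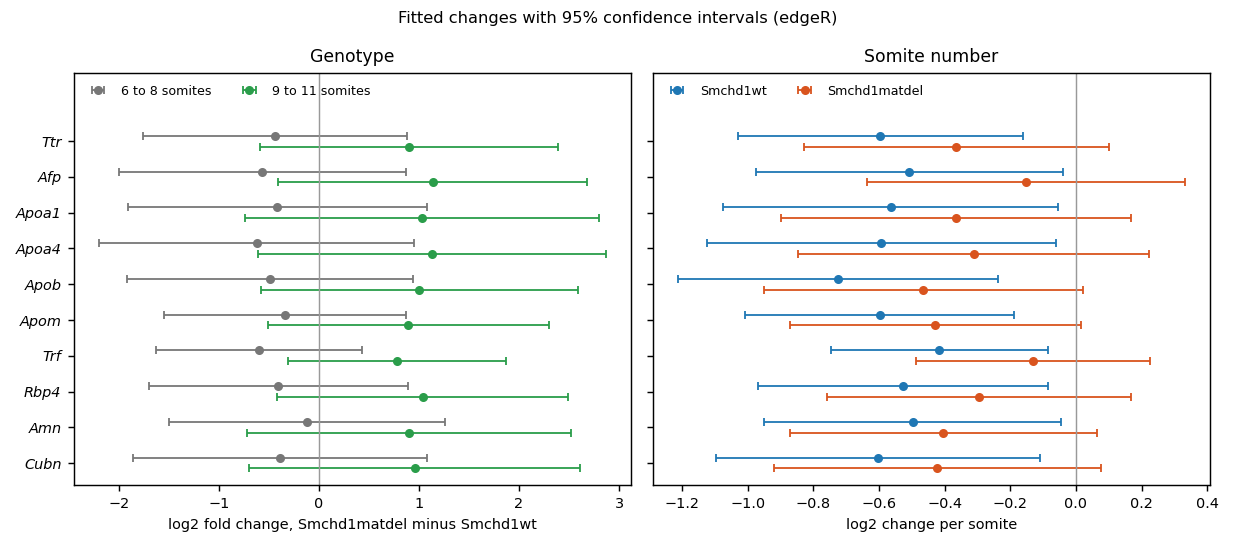
Fitted log2 changes of the 10 genes with 95% confidence intervals from edgeR: the genotype difference in both somite windows on the left, the slope per somite in both genotypes on the right. The Smchd1wt slopes lie between -0.73 and -0.42 with intervals below 0 before adjustment, and every genotype interval spans 0. The genotype intervals rest on an estimate of spread shared by both windows.

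Since the very low values appeared from 9 somites on, the 17 embryos with 9 to 11 somites were also compared with the 20 with 6 to 8 somites, over both genotypes and with sex in the model. This comparison was chosen after the values had been seen. Apob fell by 1.92 ± 0.57 (SE) on the log2 scale with an adjusted p of 0.0199 (edgeR), Apom fell by 1.53 ± 0.50 with 0.0322 and Cubn fell by 1.71 ± 0.58 with 0.0417. These 3 of 10 genes passed, where 6.58% of the 15420 genes tested fell and 7.29% rose. Ttr missed the threshold at -1.46 ± 0.52 with an adjusted p of 0.0551. The other 6, from -0.96 for Trf to -1.40 for Apoa4, had adjusted p between 0.098 and 0.185. The call depended on few embryos: 9 of 10 genes passed without the first 9-somite Smchd1matdel embryo (15.5% of all genes) or without the first 10-somite Smchd1wt embryo (18.6%), and 1 passed without the first 8-somite Smchd1wt embryo (12.1%). In the 24 female embryos alone 10 of 10 passed, with 15.6% of all genes, and without the sex term 0 of 10, with 13.9%. With limma voom 10 of 10 passed, with 16.8% of all genes. In Smchd1wt embryos alone 5 of 10 passed, with 6.03% of all genes, and in Smchd1matdel embryos alone 0 of 10, with 1.89%. In the latter Apob was at -0.99 ± 0.93, Apom at -0.74 ± 0.70 and Cubn at -0.87 ± 0.92 (log2 change ± SE).

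Other lists were counted between the same windows, to be read against the 6.58% of all genes that fell and the 7.29% that rose. Of the other secreted plasma proteins 1 of 18 tested fell, Apoc1 by 1.34 ± 0.43, and the list's median was -1.26 against -0.0067 for all genes. Of the uptake and lipid assembly genes 8 of 18 fell, Dab2 by 1.16 ± 0.32 and Lrpap1, the chaperone of the uptake receptors, by 0.60 ± 0.15, and 2 rose. Of the 13 genes listed as visceral endoderm factors 3 fell, Cdx1 and Gata4 among them, and 3 rose, Nr2f2 among them. Cdx1 was at 31.0 CPM or above in every embryo and had r of 0.533 with the 10 genes. Whether its RNA came from the visceral endoderm was not tested. Gut endoderm markers fell in 6 of 13 cases, led by Trh with -1.52 ± 0.21 and Nepn with -1.66 ± 0.33, and rose in 2. Parietal endoderm markers fell in 3 of 10 cases, Fst by 2.16 ± 0.29, and trophoblast markers in 2 of 6, Elf5 by 1.02 ± 0.32. Rising genes were 4 of 10 erythroid markers, Hbb-y with 3.32 ± 0.55, and 5 of 8 endothelial markers, Emcn with 2.18 ± 0.29. Allantois markers gave 1 of 8 rising, Pitx1, hepatoblast markers 0 of 2 either way, and tailbud markers 3 of 12 rising and 1 falling (Nkx1-2). The part of these cell types in the values of the 10 genes was not tested.

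Genotype was compared with stage and sex in the model. Over all stages 0 of the 10 genes passed with edgeR, where 0.0125% of all genes did, and 0 of 10 had an unadjusted p under 0.05, where 5.66% of all genes did. The log2 fold change (Smchd1matdel minus Smchd1wt) was 0.06 to 0.31 with a median of 0.19, against -0.0023 for all genes. Ttr was at 0.15 ± 0.50 (SE, 37 embryos) with a 95% confidence interval of -0.86 to 1.17, and Amn at 0.31 ± 0.52. A difference anywhere within such an interval is not excluded by these embryos.

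Within windows none of the 10 genes passed (edgeR). Both windows were fitted together, with a shared estimate of each gene's spread. For Ttr the SD of log2 CPM within groups was 0.73 at 6 to 8 and 2.96 at 9 to 11 somites. The SEs below therefore do not reflect the separate spread of each window. They can be too wide in the earlier window and too narrow in the later one. At 6 to 8 somites, where 0.0123% of all 16265 genes passed, the fold changes were -0.62 to -0.12 with a median of -0.43, Ttr having -0.44 ± 0.65 and Amn -0.12 ± 0.68. At 9 to 11 somites, where 0.00615% passed, they were 0.78 to 1.14 with a median of 0.98, Ttr having 0.90 ± 0.73 and Amn 0.90 ± 0.80. The difference between the windows, tested directly, was 1.02 to 1.75 with unadjusted p of 0.0688 to 0.333, and 0 of 10 genes and 0% of all genes passed with edgeR. In that test 3.55% of all genes had an unadjusted p under 0.05. The signs were not stable. Without the fourth 7-somite Smchd1wt embryo the median at 6 to 8 somites was 0.073 and Ttr was at -0.0088, and without the first 9-somite Smchd1matdel embryo the median at 9 to 11 somites was 0.22 and Ttr was at 0.027. The median was -0.55 over all stages and -0.91 at 9 to 11 somites with limma voom, and -0.081 and -0.13 with the replicate number of the labels as a block.

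Sex was uneven in both windows. All 4 Smchd1wt and all 4 Smchd1matdel embryos with 6 somites were female, so sex was partly tied to stage. At 7 somites 3 of 4 Smchd1wt and 2 of 3 Smchd1matdel embryos were male. At 8 somites 2 of 3 Smchd1wt and 0 of 2 Smchd1matdel embryos were male. The later window held 7 female Smchd1wt and 4 female Smchd1matdel embryos against 3 male embryos of each genotype. In females with 9 to 11 somites Ttr ran from 0.304 through a median of 8.68 to 39.6 CPM in Smchd1wt and from 1.92 through 24.1 to 150.3 CPM in Smchd1matdel embryos. Cubn ran from 0.729 through 12.2 to 60.5 CPM and from 3.67 through 37.2 to 157 CPM in the same females. The groups overlapped for both genes. Females alone gave a median log2 difference of 2.59 at 9 to 11 somites, with an unadjusted p under 0.05 for 10 of 10 genes, where 1.95% of all genes were higher in Smchd1matdel with such a p. None of the 10 passed the adjusted threshold (edgeR). Since the 10 genes varied together, 10 of 10 does not stand for 10 separate results.

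Although the 10 genes moved together, their proportions shifted with stage. The ratio of each of the other 9 genes to Ttr was followed over somite number (log2 ratio, permutation test with 100000 permutations, adjusted over 9 ratios), a comparison added after the values had been seen. Afp rose against Ttr, with r of 0.592 and rho of 0.595 (adjusted p 0.00045 and 0.00042, permutation test). The median Afp to Ttr ratio was 2.14 at 6, 2.3 at 7, 2.81 at 8, 3.21 at 9, 4.25 at 10 and 3.82 at 11 somites. Apob fell against Ttr, with r of -0.598 and rho of -0.66 (adjusted p 0.000135 and 9e-05, permutation test). The median Apob to Ttr ratio was 4.66 at 6, 4.08 at 7, 4.76 at 8, 3.65 at 9, 3.85 at 10 and 3.69 at 11 somites. It was thus lower from 9 somites on and did not fall steadily. Without the 2 farthest embryos r was 0.71 for Afp and -0.546 for Apob.

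In the 32 embryos with at least 50 counts of both genes r was 0.687 for Afp and -0.533 for Apob. Neither ratio passed the threshold within a window. For Afp r was 0.603 at 6 to 8 somites (adjusted p 0.0535, permutation test) and 0.083 at 9 to 11 somites (0.909), and for Apob it was 0.037 and -0.213 (0.879 and 0.909). With Apoa1 in place of Ttr, r was 0.696 for Afp and -0.341 for Apob, the latter with an adjusted p of 0.0674 (permutation test). With Cubn in its place r was 0.617 and -0.471, both past the threshold. In Smchd1wt embryos alone r was 0.719 and -0.651, and in Smchd1matdel embryos 0.449 and -0.612, where the adjusted p of Afp was 0.148 (permutation test).

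Of the other ratios, Trf to Ttr rose with r of 0.616 and rho of 0.747 (adjusted p 9e-05 for both, permutation test), and Trf shares exons with Gm20425. Several ratios also moved with the level of Ttr itself: r of the log2 ratio with log2 Ttr was -0.896 for Trf, 0.709 for Apoa1, -0.686 for Rbp4, -0.616 for Apom, 0.538 for Apob and -0.309 for Afp. For Apoa4, Amn and Cubn it was 0.568, -0.446 and 0.233. Ttr enters both measures, so they are not independent. With at least 50 counts of both genes this r was -0.72 for Trf, 0.653 for Apoa1, -0.0177 for Rbp4 and 0.313 for Apom. It was then 0.466 for Apob, -0.232 for Afp, 0.427 for Apoa4, -0.153 for Amn and 0.627 for Cubn. Rbp4 to Ttr had r of 0.434 (adjusted p 0.00821, permutation test) and 0.206 with at least 50 counts of both genes (0.394). Apoa1 to Ttr had r of -0.362 (adjusted p 0.0474, permutation test) and rho of -0.354 (0.0581), and r of -0.147 with at least 50 counts (0.545). For Apoa4, Apom, Amn and Cubn r was between -0.167 and 0.192 with an adjusted p of 0.355 (permutation test). Apom to Ttr turned from r of 0.16 to -0.515 in the 30 embryos with at least 50 counts of both genes (adjusted p 0.00369, permutation test).

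**Figure D5:**
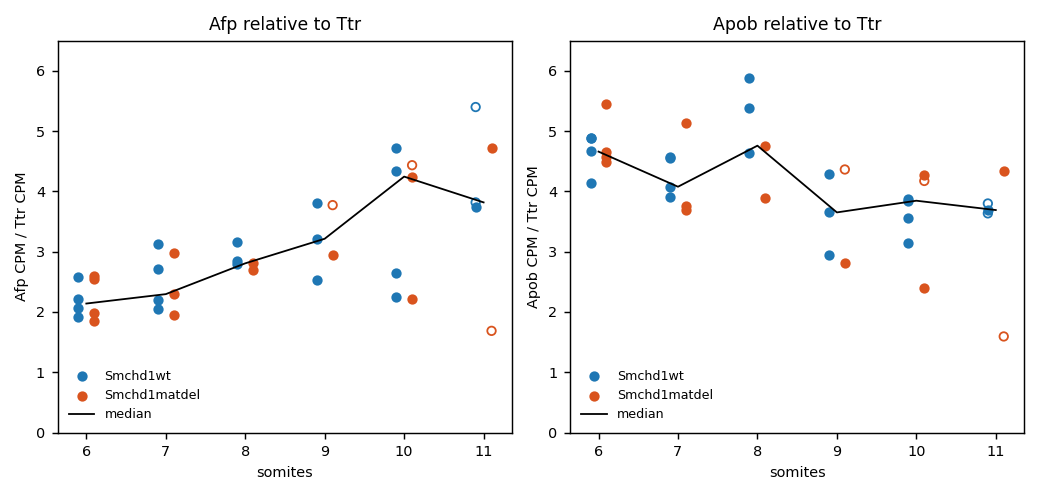
Ratio of Afp (left) and Apob (right) to Ttr in CPM against somite number, Smchd1wt in blue and Smchd1matdel in orange, with open points where either gene had under 50 counts and a line through the medians. The Afp median goes from 2.14 at 6 to 4.25 at 10 somites, and the Apob median from 4.66 at 6 through 4.76 at 8 to 3.69 at 11 somites.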

How the data were processed

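PolyA RNA from 37 single-embryo tailbuds was sequenced by the authors as 75-base single-end reads from stranded or unstranded TruSeq libraries, and which library used which kit is not given in the sources used here. The authors trimmed the reads (Trim Galore 0.4.4), aligned them to GRCm38.p6 (HISAT2 2.0.5) and deposited raw read counts per gene from SeqMonk. A deposited table of Hox genes and a table of the authors' own comparisons (fold changes and p-values) were not used. Of 35591 rows, 49 with a repeated identifier were dropped.

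Library totals were 916444 to 80579115 counts, and limits of counts cover counting error only. Groups came from the genotype and somite labels. Genes with too few counts were removed (filterByExpr of edgeR 4.0.16, minimum count 10), scaling was TMM, and quasi-likelihood tests were adjusted by Benjamini-Hochberg over all genes tested (threshold 0.05). Genotype models held somite stage and sex, and slope models held genotype and sex. CPM on the log2 scale used a prior count of 2. Correlations used 100000 permutations (numpy 2.4.6, two-sided). Alternatives used DESeq2 1.42.0 and limma 3.58.1 (voom), and the tests were tried on simulated data. The 10 genes and the lists were chosen with earlier results of these data known. Named genes are the 10, up to 4 called genes per list with the smallest adjusted p, the 12 genes most alike, the most abundant gene per list and the neighbours Apoa5, Apoc3 and Alb. Some genes that the rule names are not reported here. Genes named beyond these were picked after their values were seen. Promoter sequences were from RefSeq.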

Additional observations from a re-analysis of the deposited data

Results flagged for a closer look

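Within the 4 groups of 4 embryos, each gene was searched for an embryo far from the other 3, 40 sets in all, in which chance marks about 1 set in 20. There were 2 such sets, both of Amn. In Smchd1wt embryos with 6 somites the second embryo had 4.83 CPM of Amn (37 counts), where the other 3 had 20.1 to 21.5 CPM. The same embryo was the lowest of its group for the other 9 genes too, by a smaller share of the group's range. In Smchd1matdel embryos with 6 somites the first embryo had 38.3 CPM of Amn, where the other 3 had 21.9 to 24.1 CPM. This library is 1 of the pair rich in ribosomal RNA counts, at 2.77% against 0.176% to 1.28% in the 35 libraries outside the pair.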

How the results depend on the processing

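Calls of genotype differences did not depend on the settings tried: 0 of 10 genes passed over all stages, in either window and between windows under each alternative and with each embryo left out. Unadjusted p-values (edgeR) were less stable. At 6 to 8 somites 4 of 10 genes had one under 0.05 with that window fitted alone. In the main fit 0 of 10 did, and 8.92% of all genes. At 9 to 11 somites 7 of 10 did without the first 10-somite Smchd1wt embryo. In the main fit 0 of 10 did, and 1.09% of all genes. The share of all genes was not counted for these alternatives. The estimates were also less stable than the calls. For Ttr the difference over all stages was 0.15 with edgeR, -0.64 with limma voom, -0.020 without the sex term and -0.17 with the replicate block, and for Amn 0.31 and -0.22 with limma voom. At 6 to 8 somites Amn went from -0.12 to 0.43 with the replicate block and 0.083 in females alone. At 9 to 11 somites limma voom gave -1.21 for Ttr and -0.87 for Amn, and the replicate block -0.21 for Ttr. Between windows limma voom gave -0.78 and -0.87, and the replicate block -0.076 and -0.18, for Ttr and Amn. The slope difference became -0.19 and -0.29 with limma voom and -0.054 and -0.10 with the replicate block. The cause was not tested. With each embryo left out, the difference over all stages ran from -0.24 to 0.46 for Ttr and from -0.068 to 0.74 for Amn, that of Amn at 6 to 8 somites from -0.28 to 0.47 and at 9 to 11 somites from -0.042 to 1.58, and its slope difference from -0.036 to 0.40.

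The Smchd1wt slope was called for 6 genes with DESeq2, 2 with limma voom, 10 in females alone and 3 in Smchd1wt embryos alone, and for 0 to 9 with 1 embryo left out. The Smchd1matdel slope was called for 7 genes with limma voom and for 0 under the other alternatives. Over all genes the Smchd1wt slope was called for 980, and for 905 to 1476 under the alternatives and 712 to 1766 with 1 embryo left out. For the Smchd1matdel slope these were 962, 422 to 1474 and 640 to 1206. The comparison of 9 to 11 with 6 to 8 somites called 3 genes, against 10 with limma voom, 0 without the sex term, 10 in females alone, 5 in Smchd1wt and 0 in Smchd1matdel embryos alone, and 1 to 9 with 1 embryo left out. Over all genes it called 2139, and 293 to 2775 under the alternatives. The 45 pairs of genes passed under each alternative, with a median r of 0.936 to 0.983, and the median SD within groups stayed between 1.84 and 2.11. Of 9 ratios to Ttr 5 passed, against 3 over Apoa1, 3 in Smchd1wt and 2 in Smchd1matdel embryos alone, 0 at 6 to 8 and 0 at 9 to 11 somites, where Apob to Ttr had r of 0.037 in the earlier window, and 3 to 5 with 1 embryo left out. With at least 50 counts of both genes 4 passed, Apom among them with r of the opposite sign.

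Embryos of both genotypes share replicate numbers. Of 16 same-numbered pairs 4 had deviations correlated above 0.1 (range -0.286 to 0.582, median 0.0114). Pairs with unlike numbers were not compared, so this cannot settle whether the numbers pair embryos. The replicate block changed no count of calls among the 10 genes, and a block of stage and number leaves no slope within a genotype to fit, so those 2 slopes had no paired value. Depth limits the lowest embryos: with all libraries thinned to 916444 counts the lowest r over pairs was 0.881.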
